A study of Mus musculus with 6 samples.

Results

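This report describes 300 probes of a mouse oligonucleotide microarray, chosen by a detection flag on their RNA signal. They passed it on every array of antral oocytes sorted by chromatin class and on neither array of smaller oocyte pools. A probe was taken where the scanner software marked its Cy3 signal, the dye of the oocyte RNA, as well above background on all 4 arrays of the SN and NSN groups and not on either array of the oocyte group. Of 42006 probes, 2679 met that condition, and the 300 with the highest mean log2 Cy3 intensity over the 4 arrays were kept. Detection and Cy3 level therefore chose these probes, so the difference in Cy3 between the SN and NSN pools and the oocyte pools is described without a test.

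The study compared oocytes by how the chromatin lies around the nucleolus, with 3 groups of 2 arrays each. The SN group (surrounded nucleolus) held 2 pools of 50 oocytes, and the NSN group (not surrounded nucleolus) held pools of 41 and 44 oocytes. The group labelled only oocyte held 2 pools of 10 oocytes. Each array was hybridised with Cy3-labelled oocyte RNA after 2 rounds of linear amplification and with a Cy5-labelled RNA common to all arrays, which combined a pool from 11 cultured lines with RNA of embryonic stem cells at a ratio of 2 to 1. The collection protocol, printed alike for all 6 arrays, names wild type and Matertm/tm mice of 39 weeks (Mater is a maternal gene of the oocyte), and the labels do not say which pool came from which genotype. The oocyte pools were not labelled by chromatin class. The sample characteristics name embryonic stem cells for all 6 arrays while titles and descriptions name oocytes. The files pair no probe with a gene, so neither label could be checked against marker genes. The labels do not tie the pools to animals, so p-values measure the spread between these arrays, which may be technical.

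A growing oocyte makes and stores the RNA that will serve the early embryo, and transcription stops as the oocyte reaches full size. In NSN oocytes the chromatin is open and transcription is still under way, whereas in SN oocytes the chromatin has condensed into a ring around the nucleolus and transcription is silent. SN oocytes develop past the first cleavages far more often than NSN oocytes do. A pool of oocytes gives 1 RNA sample, in which fewer oocytes carrying a transcript and less of it in each oocyte cannot be told apart.

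The probes are 60-base DNA sequences printed on the array, and the array files give them without a genome position. The first set below holds the probes on which the levels turn: 3 of the 4 brightest, whose Cy3 intensity in NSN was near that in SN, the brightest of those at least 2-fold lower in NSN on the ratio of both dyes, the probes with the lowest and highest NSN level relative to SN on that ratio, and a probe whose reference signal moved with its oocyte signal. Capitals mark the hexamer AATAAA, the commonest signal for cutting and polyadenylating a messenger RNA, where a probe holds it.
Z00048212-1: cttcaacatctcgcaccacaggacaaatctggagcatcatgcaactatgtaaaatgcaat
Z00026997-1: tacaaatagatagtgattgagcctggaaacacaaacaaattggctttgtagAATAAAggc
Z00052106-1: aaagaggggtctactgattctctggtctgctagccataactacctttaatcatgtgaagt
Z00062597-1: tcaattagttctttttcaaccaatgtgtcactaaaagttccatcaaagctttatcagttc
Z00021472-1: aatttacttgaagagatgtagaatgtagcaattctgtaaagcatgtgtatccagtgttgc
Z00059048-1: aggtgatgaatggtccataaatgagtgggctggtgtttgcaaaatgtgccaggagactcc
Z00034656-1: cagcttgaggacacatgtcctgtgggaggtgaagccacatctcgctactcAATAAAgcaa

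The second set holds probes that share sequence, which shows whether separate spots gave like readings. Capitals mark the stretch that both probes of a pair hold on the same strand. Both probes of the first pair belong to the 300; in the other pair only Z00075171-1 does.
Z00020448-1: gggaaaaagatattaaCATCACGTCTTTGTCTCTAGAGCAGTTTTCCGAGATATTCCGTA
Z00074626-1: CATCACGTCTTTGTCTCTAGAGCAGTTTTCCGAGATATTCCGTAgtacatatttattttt
Z00075171-1: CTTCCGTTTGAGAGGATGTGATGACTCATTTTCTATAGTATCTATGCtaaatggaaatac
Z00054524-1: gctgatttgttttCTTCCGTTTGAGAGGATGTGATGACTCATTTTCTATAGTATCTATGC

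The third set shows 3 probes of 1 family of near-identical probes. Capitals mark the 21-base core ACCTGCAGAAAGGGTCATTTA that all 9 of the family's probes among the 300 hold, and which 16 probes of the array (0.0381%) hold.
Z00031084-1: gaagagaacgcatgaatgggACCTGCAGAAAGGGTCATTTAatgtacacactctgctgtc
Z00073040-1: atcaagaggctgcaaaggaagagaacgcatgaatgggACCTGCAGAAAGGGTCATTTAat
Z00077417-1: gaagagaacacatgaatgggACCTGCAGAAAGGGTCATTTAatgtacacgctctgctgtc

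The oocyte arrays were dimmer than the others. Their mean Cy3 intensity was 2110 and 1417, against 4719 to 5361 on the SN and NSN arrays, and 23742 and 22010 probes were well above background against 27168 to 29780. The SN and NSN arrays shared a slide, and the oocyte arrays were on 2 further slides. Group, slide and pool size thus cannot be told apart in any comparison with the oocyte group.

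The 300 probes spanned a wide range of brightness on the SN and NSN arrays. Their mean log2 Cy3 processed intensity, the background-subtracted and dye-normalised value in the scanner files, lay between 10.39 and 16.51 with a median of 11.41, or from 1344 to 93104 on the linear scale. Per array, the median over the 300 probes was 11.57 and 11.85 for the SN pools, 11.12 and 11.38 for the NSN pools, and 4.95 and 5.07 for the oocyte pools. At the edge of the list, Z00063313-1 and Z00058647-1 had mean log2 levels of 10.40 and 10.39 and were the last taken, while Z00062486-1 and Z00067123-1 at 10.38 and 10.37 were the first left out. The edge is thus a rank and not a gap in the levels.

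The brightest of the 300 were among the bright probes of the whole array. Z00048212-1, ranked 1, had a log2 Cy3 intensity of 16.66 and 16.73 on the SN arrays, of 16.54 and 16.10 on the NSN arrays, and of 3.78 and 3.96 in the oocyte pools. Z00026997-1, ranked 2, read 16.12 and 16.33 in SN, 16.23 and 16.14 in NSN, and 4.22 on both oocyte arrays. Z00052106-1, ranked 4, read 15.62 and 15.95 in SN, 15.68 and 15.89 in NSN, against 4.28 and 4.37 in the oocyte pools. Each of these 3 probes was high on all 4 sorted arrays and close to the floor of the scale on both oocyte arrays.

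How far the detection limit bears on their lack of detection was described from the oocyte arrays themselves. The lowest log2 signal that the software called well above background was 6.51 (90.9 on the linear scale) on the first oocyte array and 6.70 (104) on the second. These limits lay below the lowest SN and NSN mean of the 300 probes by more than 3 log2 units. On these arrays the 300 probes reached at most 7.23 and 7.48, and 56 and 36 of them lay above the lowest passing signal without passing themselves. The flag is set spot by spot, so a probe above the lowest passing signal can still lack it.

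Missing the flag was not the same as having no signal. By the software's weaker criterion, a signal that is positive and significantly different from background, 113 of the 300 probes passed on both oocyte arrays, 97 on 1 and 90 on neither. Per oocyte array, 167 and 156 of the 300 passed it. Over the whole array, 7729 and 7931 probes passed it without the stronger flag. That flag was held by 23742 and 22010 of the 42006 probes. Against 153 negative control spots per array, 25 and 19 of the 300 probes lay at or below the 95th percentile of the control signals. At the value the software substitutes for the weakest spots, 24 and 18 of the 300 were found. The oocyte signal of the 300 thus ranged from the level of the controls up to the flag. The control percentile itself, 3.89 and 4.01, lay close to the substituted value.

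Probes as bright as these in SN and NSN were nearly all detected in the oocyte pools. Of 12666 probes with a mean log2 level at or above the lowest of the 300 and well above background on all 4 SN and NSN arrays, 12059 (95.2%) were well above background on both oocyte arrays, 307 on 1 and 300 (2.37%) on neither; the last are the 300 described here. The share detected on neither array was 55.9% among probes with a log2 level of 5 to 6, 10.1% at 9 to 10, 6.80% at 10 to 11, 2.39% at 12 to 13 and 0.304% at 16 to 17. Lack of detection thus became rarer with brightness, and 95 of the 300 lay at 10 to 11, 117 at 11 to 12, 51 at 12 to 13, 20 at 13 to 14, 11 at 14 to 15, 3 at 15 to 16 and 3 at 16 to 17.

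A level to be seen on the oocyte arrays was also set for each probe by adding the median shift of all probes of like brightness to its own SN and NSN mean. These levels were 10.85 at the lowest and 11.54 at the median, and the lowest lay 4.16 log2 units above the higher of both limits. All 300 probes had such a level above the limit, as did 2392 of all 2679 probes meeting the detection condition. With the 5th percentile of the passing signals, 7.29 and 7.51, in place of the lowest, 300 and 1725 did. The detection limit was lower than the level of like probes for each of the 300, but not for all of the dimmer probes that met the same condition. These levels rest on the SN and NSN mean by which the 300 were ranked, so that result follows largely from the ranking.

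Since no probe of the 300 passed the flag on the oocyte arrays, the difference is given as a least fold. The mean over the 4 SN and NSN arrays was set against the mean over both oocyte arrays of the higher of the lowest passing signal and the probe's own signal, on log2 Cy3 values after loess and quantile normalisation of the spots' average intensity. SN and NSN together were at least 9.08-fold higher at the median of the 300 probes (log2 3.18). Their median level was 10.11 in SN and NSN, against a measured 6.97 in the oocyte pools. The lowest passing signals on this scale, 6.09 and 6.12, lay below that oocyte median. For many probes the own signal and not the limit thus set the bound. All but 1 of the 300 were at least 2-fold higher, 252 at least 4-fold, 173 at least 8-fold and 74 at least 16-fold. The dyes were not swapped, so these folds are open to dye bias. The size also turned on the scale, since the median bound was 27.9-fold (log2 4.80) on the processed Cy3 intensity scaled to the 75th percentile of each array.

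The bounds differed widely between probes. For Z00048212-1 the level was at least 414-fold higher, the highest of the 300, and for Z00052106-1 at least 264-fold. The highest reading of the 300 on the second oocyte array was that of Z00036223-1, and on the first that of Z00062568-1. Z00036223-1 read 6.42 and 7.48 in the oocyte pools, 11.44 and 11.86 in SN and 10.75 and 10.37 in NSN. Z00062568-1 read 7.23 and 5.09, then 12.12 and 12.11, then 9.49 and 11.68. Their bounds were at least 2.71-fold and 3.29-fold. The lowest bound, at least 1.85-fold, belonged to Z00016189-1, which is named here because of that value.

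A pair of overlapping probes fell on either side of the flag. Z00075171-1 read 6.72 and 6.81 on the oocyte arrays and was not well above background, and Z00054524-1, which shares 47 bases with it, read 7.28 and 7.66 and was well above background on both. In SN and NSN they read 14.50, 14.88, 14.47 and 14.64 against 14.59, 14.99, 14.60 and 14.75. Both probes were thus within 1 log2 unit of each other on every array, and both were far lower in the oocyte pools, although only 1 met the condition.

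In the reference channel the 300 probes were of middling brightness. Cy5 levels are given as log2 processed Cy5 intensity minus the 75th percentile of the array, so that 0 is the level of a probe brighter than 75 in 100 of the array. The median over the 300 probes was -2.82, against -3.68 over all probes, -4.88 over the 2379 dimmer probes that met the detection condition and -0.08 over the 20457 probes well above background in Cy3 on all 6 arrays. The software marked the Cy5 signal of 231 of the 300 (77%) as above background on every array, against 65.4% of all probes and 94.4% of those detected in Cy3 everywhere. Most of the 300 thus had reference signal above background, with 59 (19.7%) above the 75th percentile and 16 detected in Cy5 on no array.

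The extremes of the Cy5 level were far apart. The highest were Z00020448-1, Z00074626-1 and Z00075171-1, with a raw Cy5 intensity of 10817 to 22559 on every array. The lowest were Z00023419-1, Z00054855-1 and Z00053844-1, whose raw Cy5 intensity was 46.8 to 65.7 and which were well above background in Cy5 on no array. The latter read between 9.13 and 12.88 in log2 Cy3 on the SN and NSN arrays, so they stood above background in the oocyte RNA only.

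The Cy5 reference was the same RNA on every array, so its readings were compared between slides without using the oocyte RNA. Per array, 80.3% and 78% of the 300 probes were well above background in Cy5 on the oocyte arrays and 91.3% to 92.3% on the SN and NSN arrays, while over all probes these shares were 70.1% and 68.2% against 68.4% to 71.4%. Of the 300, 27 (9%) were detected in Cy5 on all 4 SN and NSN arrays and on neither oocyte array, as were 0.521% of all probes. The reverse pattern was found in 0 of the 300 and in 0.219% of all probes. It was too rare for its lack in the 300 to be read as a result. The Cy5 detection of these probes thus differed between slides in the same direction as their Cy3 detection.

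The difference in Cy5 was tested with limma, which fits a linear model to each probe and moderates its variance over all of them. Of 29935 probes tested in Cy5, SN and NSN together were higher than oocyte in 12.7% and lower in 29.9% (Benjamini-Hochberg adjusted p under 0.05). The SN and NSN arrays shared a slide and the oocyte arrays lay on other slides. The p-values of this Cy5 fit therefore do not measure the spread between slides. Of the 277 of the 300 probes that were tested, 75 (27.1%) were higher and 71 (25.6%) lower. Without the first or the second NSN array the lower count was 47 and 46, and with the quantile and normexp settings it was 33 and 20. A Cy5 difference of at least 2-fold higher was found in 30 of the 277 (10.8%), against 2.37% of all probes; a difference of at least 2-fold lower was found in 0 of the 277, against 3.71%. With normexp background correction the 30 became 18, and with oocyte readings under the lowest passing Cy5 signal raised to it they became 25, against 2.08% of all probes.

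The 30 probes with the higher Cy5 signal were bright in Cy3 and dim in Cy5. Their median log2 Cy3 level was 12.65, against 11.41 for all 300. On the oocyte arrays their median Cy5 level was -6.97, with 27 of 30 under -5, and 23 of 30 were not well above background in Cy5 on either oocyte array. Of the 231 probes above background in Cy5 on every array, 4 (1.73%) were at least 2-fold higher, against 1.74% of such probes on the whole array. In these 231, limma called 46 (19.9%) higher and 68 (29.4%) lower, against 12.9% and 29.7% (adjusted p under 0.05). The 2-fold differences in Cy5 were thus mostly those of probes whose reference signal was not detected on the oocyte arrays. Whether signal of 1 dye was read in the channel of the other was not tested.

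Z00034656-1 had the widest such bound of the 277 probes. Its raw Cy5 intensity was 61.7 and 61.4 on the oocyte arrays, 1943 and 2298 in SN, and 314 and 794 in NSN. Its log2 Cy3 intensity followed the same order, with 4.02 and 4.44 in the oocyte pools, 15.67 and 15.81 in SN, and 13.11 and 14.28 in NSN. It was not well above background in Cy5 on the oocyte arrays, so its Cy5 level is a bound there: with the oocyte readings raised to the lowest passing Cy5 signal, SN and NSN were at least 70.8-fold higher. Its readings in the reference channel were thus ordered like its readings of oocyte RNA on all 3 groups.

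Z00048212-1, the brightest of the 300, also had a higher Cy5 signal in SN and NSN than in the oocyte pools, but SN and NSN overlapped. Its raw Cy5 intensity was 52.5 on both oocyte arrays, 179 and 199 in SN and 187 and 157 in NSN. With the oocyte readings raised to the limit, its Cy5 level in SN and NSN was at least 8.55-fold higher. Z00062597-1 did not show it: its raw Cy5 intensity was 3000 and 2377 in the oocyte pools, 1407 and 1769 in SN and 1991 and 1848 in NSN, a scaled Cy5 difference of 0.11 (SE 0.09, limma adjusted p = 0.32). In log2 Cy3, Z00062597-1 read 5.18 and 5.91 on the oocyte arrays, above the control percentiles of 3.89 and 4.01. Lack of the Cy3 flag in the oocyte pools thus occurred both with a wide and with a small difference in the reference channel.

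NSN was compared with SN on the ratio of Cy3 to Cy5 after loess normalisation, fitted on the 4 arrays of the shared slide. The choice of probes used the mean over these arrays and not their difference. Of 28429 probes tested, limma called 0 (0%) at an adjusted p under 0.05, and 0 of the 300. At an unadjusted p under 0.05 there were 83 of the 300 (27.7%), against 10.9% of all probes tested, and the lowest adjusted p among the 300 was 0.112. With all 6 arrays in 1 fit 10 of the 300 were called, against 0.306% of the probes tested there, and with median centring in place of loess 21 were, against 0.475%. All of these calls among the 300 were lower in NSN.

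By size, more of the 300 probes were lower in NSN than higher. At least 2-fold lower in NSN with no overlap between the arrays of both groups were 54 of the 300 (18%), against 2.36% of all probes tested and 2.76% of those at least as bright. At least 2-fold higher with no overlap was 1 of the 300 (0.333%), against 0.222% and 0.0237%. Without 1 SN or NSN array a group held 1 array, where lack of overlap is easier to meet. Such runs are therefore not set beside these counts. At least 4-fold lower without overlap were 10 of the 300 (3.33%), against 0.208% of all probes tested and 0.197% of those at least as bright.

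The centre of the 300 lay near no difference. Their median NSN minus SN difference was 0.00 on the log2 scale, against 0.03 over all probes tested, with 5% of the 300 under -1.93 and 5% over 0.55. Lower in NSN without overlap at any size were 98 of the 300 (32.7%), against 20.1% of all probes tested, and 61 (20.3%) were higher, against 24.3%. The distribution thus had a long tail towards SN, while its middle lay where that of all probes lay.

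The 54 probes lower in NSN were bright in SN. Their median log2 Cy3 intensity was 12.62 and 13.07 for the SN pools, 10.25 and 11.18 for the NSN pools, and 4.91 and 5.13 in the oocyte pools, and their median NSN minus SN difference was -1.63. The first NSN array read lower than the second for 45 of the 54 (83.3%). So it did for 136 (55.5%) of the 245 probes left without these 54 and the 1 higher probe, and for 49.6% of all probes tested. The first SN array also read lower than the second for 39 of the 54 (72.2%). Of the 50 brightest of the 300, 13 were among the 54, and of the 50 dimmest, 6 were. That NSN lay between SN and oocyte, and that SN was bright, follow largely from how these 54 were chosen. The NSN arrays were unequal within that range.

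They were also bright in the reference. The median Cy5 level of the 54 was -0.14, and 26 (48.1%) exceeded the 75th percentile of the array, against -3.07 and 33 (13.5%) for the other 245. When the 300 were ordered by Cy5 level into 4 sets of 75, the count of probes at least 2-fold lower in NSN was 7, 9, 8 and 30 from the dimmest to the brightest set. The count thus stood apart in the brightest set, at 40% against 9.33% to 12%. These values describe probes chosen by their difference and carry no test.

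The largest difference on the ratio was that of Z00021472-1, ranked 297. On the SN arrays its log2 ratio of Cy3 over Cy5 was 5.34 and 5.99, on the NSN arrays 2.10 and 1.95, and on the oocyte arrays -0.03 and -0.08. The SN arrays were high and the NSN arrays low without overlap. The difference was -3.64 log2 units (SE 0.25, 95% interval -4.31 to -2.97, limma adjusted p = 0.112). This probe was not well above background in Cy5 on any array, so the ratio rests on Cy3, where the readings were 11.75 and 12.46 in SN and 8.79 and 8.69 in NSN. On Cy3 alone its difference was -3.24, and those of Z00074626-1 and Z00020448-1 were larger at -3.38 and -3.33, as they were with median centring (-3.84 and -3.79 against -2.71).

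The overlapping probes Z00020448-1 and Z00074626-1 gave the next differences on the ratio, and they read an overlapping sequence. Their log2 ratios were -1.41 and -1.59 against -1.25 and -1.54 in SN, and -4.87 and -3.94 against -4.76 and -3.89 in NSN. The NSN minus SN differences were -2.90 (limma adjusted p = 0.142) and -2.93 (limma adjusted p = 0.136). These differences were 0.0221 log2 units apart, and both probes placed the first NSN array below the second.

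On the ratio, 4 of the 10 brightest probes were at least 2-fold lower in NSN without overlap, as were 2.36% of all probes tested. On Cy3 alone, Z00012363-1 and Z00034656-1 among the 10 also differed by -1.78 and -1.92. Z00062597-1 had log2 ratios of 3.98 and 4.17 in SN and 1.49 and 1.92 in NSN, and the difference was -2.37 (SE 0.20, 95% interval -2.89 to -1.85, limma adjusted p = 0.112). Z00030719-1 had 3.38 and 3.72 in SN against 0.36 and 1.97 in NSN, with a difference of -2.39 (SE 0.56, 95% interval -3.85 to -0.92, limma adjusted p = 0.293), with an NSN spread of more than 1 log2 unit. Z00064768-1 and Z00057370-1 differed by -1.93 and -1.96. In all 4 of these probes both SN arrays lay above both NSN arrays, and the tests did not pass.

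Others of the 10 brightest read alike in both classes. Z00048212-1 had log2 ratios of 7.71 on both SN arrays and of 7.72 and 7.62 on the NSN arrays, which differed by -0.04 (95% interval -0.37 to 0.29). Z00052106-1 had 7.81 and 7.92 in SN against 7.94 and 7.76 in NSN, which differed by -0.01 (95% interval -0.38 to 0.36). For these probes the intervals leave out a 2-fold difference between the classes. Z00026997-1 and Z00055069-1 differed by -0.36 and -0.32 without overlap between the classes, and neither passed the test (limma adjusted p = 0.489 and 0.46). On Cy3 alone they differed by 0.08 and -0.28, so the direction of Z00026997-1 turned with the measure.

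The only probe at least 2-fold higher in NSN without overlap was Z00059048-1, ranked 244. Its log2 ratio was 3.55 and 3.51 in SN against 4.78 and 4.53 in NSN, which differed by 1.13 (SE 0.15, 95% interval 0.74 to 1.52, limma adjusted p = 0.158). Among probes without overlap, Z00034656-1 at 0.92 and Z00066842-1 at 0.85 came next, the latter from 4.94 and 5.56 in SN to 5.92 and 6.28 in NSN. Z00059048-1 and Z00066842-1 were not well above background in Cy5 on any array, so their ratios rest on Cy3.

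Where the reference signal itself moved, the ratio and the Cy3 signal gave different accounts. Of 269 of the 300 probes that were well above background in Cy5 on all 4 arrays, 5 (1.86%) had a Cy5 level at least 2-fold lower in NSN, against 0.0607% of all probes. These were Z00012363-1, Z00034656-1, Z00074377-1, Z00028924-1 and Z00029549-1, of which the last 3 are named after their values were seen. Z00012363-1 had a raw Cy5 intensity of 605 and 565 in the oocyte pools, 3283 and 3577 in SN and 1158 and 1666 in NSN. Its NSN minus SN difference was -0.10 on the ratio and -1.78 on Cy3 alone. For Z00034656-1 the ratio gave 0.92 and Cy3 alone -1.92, so the direction itself turned with the measure.

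On Cy3 alone, scaled to the 75th percentile of each array, the lower set was larger. At least 2-fold lower in NSN without overlap were then 68 of the 300 (22.7%), against 5.86% of all probes, and the 68 included all 54 found on the ratio. The share among all probes was thus also larger on this measure.

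Some of the 300 probes share sequence with other probes. Among them 23 shared at least 30 bases with another probe of the array on either strand, in 10 groups: 5 pairs within the 300, 4 pairs of 1 of the 300 with another probe, and the family of 18 shown above. Within the 5 pairs, the gap between the differences of both probes was 0.113 log2 units at the median and 0.169 at most. Of the 4 other pairs, 3 gave like differences, 0.0560 log2 units apart at most. The remaining one, Z00050257-1 and Z00028633-1, shares 48 bases on opposite strands, and its probes differed between the classes by 0.13 and -0.31. The 300 probes are therefore not 300 independent transcripts.

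The family of 18 probes had 9 among the 300 and 9 dimmer probes. On the SN and NSN arrays the software marked all 18 as well above background, and on the oocyte arrays it marked none of 17 of them. The mean log2 Cy3 level was 10.50 to 11.53 for the 9 and 6.68 to 10.15 for the others. Z00031084-1, the brightest, read 11.09 and 11.78 in SN, 11.49 and 11.77 in NSN, against 4.46 and 6.24 in the oocyte pools. The lack of detection was fixed by the choice of probes for the 9. Of the 9 others, 8 were likewise marked on no oocyte array, the dimmest of them at a level near the oocyte limit.

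Its NSN mean was above its SN mean in all 18 probes, by 0.09 to 0.52 log2 units (median 0.34), but the arrays of both classes overlapped in 16 of them. The limma adjusted p was 0.564 to 0.836. The first SN array was the lowest of the 4 in 17 of the 18, and without it the median difference was 0.02, with 12 of the 18 higher in NSN. With median centring it was 0.09, with 15 of the 18 higher. Near-identical probes can bind the same RNA, so the 18 are not separate observations.

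The base composition of the 300 probes was close to that of the array. Their median share of G and C was 40%, against 43.3% over all probes, and it was 36.7% for the 54 lower in NSN and 41.7% for the other 245. The hexamer AATAAA was held by 23 of the 300 (7.67%) and 6.93% of all probes, and its reverse complement TTTATT by 13 (4.33%) and 3.36%. The variant ATTAAA was held by 9 (3%) and 3.19%. A hexamer in a probe is a description of its letters and not a mapped site.

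The authors' deposited table of processed values held 25030 probes, among them 204 of the 300. There, 156 of the 204 lay at or below 2.0, the value to which the authors raised lower values in their final analysis, on both oocyte arrays. All 204 lay above it on all 4 SN and NSN arrays. Of all values in the table, 40.1% and 41.3% lay below 2.0 on the oocyte arrays. On the SN and NSN arrays 36.5% to 37.7% did. The table's values were on a log10 scale and followed the Cy3 intensity, and their exact centring is unknown.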

How the data were processed

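RNA of 6 pools of mouse oocytes was read on 2-colour arrays of 42006 probes. Per the file headers, Agilent Feature Extraction 9.5.1.1 made the deposited intensity values, linear and not normalised for the mean and background signals, and background-subtracted and dye-normalised for the processed signals. The deposited log ratio is log10 of Cy5 over Cy3, and the authors' table of processed values is also log10. In that table r with log10 Cy3 was 0.994 to 0.998, the column medians were 2.44 to 2.57, and its exact centring is unknown. The flags for signal above background, outliers and saturation are the software's own marks, another kind of value deposited in the same files. The SN and NSN arrays had 2 scan files each, and the one with the larger total signal was used. Up to 9 uneven spots per array were dropped, and no spot was saturated.

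Spots were corrected with normexp (offset 50) and loess in limma 3.58.1 (R 4.3.3), with control spots at weight 0, and spots of 1 probe were averaged. A probe needed a Cy3 signal well above background on 2 or more arrays to be tested two-sided with limma, with Benjamini-Hochberg adjustment over all of them. The Cy5 fit used processed Cy5 intensity scaled to the 75th percentile, over probes well above background in Cy5 on at least 2 arrays. Intervals are 95% confidence intervals of the NSN against SN ratio fit. The number of arrays, 2 per group, limits the precision. The fits were checked on simulated data.

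The probes and lists were chosen with earlier results of these data known. Named are the 10 brightest, the probes at the edge of the list, and the 3 with the largest and smallest NSN minus SN difference without overlap. Also named are the 3 highest and lowest in Cy5, the 2 with the highest reading on an oocyte array, and up to 3 groups sharing sequence. Gene and cell type lists were not used, since no file pairs the probes with genes, and no genome positions are given. Alternatives changed the background correction, normalisation, filter, scan, arrays and values. The same replicate number does not mark a shared animal or day in the labels, so samples were not paired.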

Additional observations from a re-analysis of the deposited data

How the results depend on the processing

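With the replicate block, limma called 0 of the 300 probes between NSN and SN, the same as without it. Each block held an array of both groups, so it left the differences as they were. The count of 54 at least 2-fold lower without overlap could therefore not change. Same-numbered arrays deviated together with r = 0.209 over all probes tested, but there are only 2 pairs. The block gave 67 higher and 57 lower calls in Cy5, against 75 and 71.

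The count at least 2-fold lower in NSN stayed at 38 to 71 under the alternatives run, and 0 of the 300 were called under all of them except all 6 arrays in 1 fit (10) and median centring (21). The count at least 2-fold higher, 1 in the report, was 0 with Cy3 quantile normalisation, 0 with median centring and 0 with the filter on both channels, 2 with a normexp offset of 16, 2 with the other scan and 2 to 3 without 1 array. With all 6 arrays or median centring, 5 of the named probes passed the limma test, all lower in NSN. The median difference was -0.21 with median centring and 0.11 with the other scan.

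With the weaker detection flag, 1606 probes met the condition and 90 of the 300 were kept. Without 1 array, 2744 to 4182 met it and 158 to 289 of the 300 were kept, with the extremes at 4182 and 158 both without the first oocyte array. The median Cy5 level was -2.46 with normexp. Calls lower in Cy5 were 20 with normexp, 33 with quantile normalisation and 46 to 70 without 1 array, and the count at least 2-fold higher in Cy5 was 18 with normexp and 25 with the limit on the oocyte readings, which was chosen after seeing the data. The median log2 bound was 2.999 with the 5th percentile of passing signals as the limit, 4.80 with the 75th percentile scaling and 4.78 with the values as deposited. The cause was not tested. The filter on dim probes and the scan changed none of the calls between NSN and SN.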
